A study of Mus musculus with 6 samples.

Results

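The Wnt genes described here comprise the secreted Wnt ligands and the genes that release, block, receive and pass on their signal. They were chosen by gene symbol: the Wnt, Fzd, Sfrp, Dkk and Rspo families, and Frzb, Wif1, Axin1, Axin2, Lrp5, Lrp6, Lef1, Tcf7, Tcf7l1, Tcf7l2, Lgr4, Lgr5, Lgr6, Rnf43, Znrf3, Nkd1, Notum and Porcn. Probe sets had to carry exactly 1 gene symbol, and the probe set with the highest mean represented a gene. This gave 59 of the 19938 genes measured, and Tcf7 was not analysed here. The family pattern also took in Fzd10os, a noncoding transcript from the strand opposite Fzd10, which is counted as a member but not as a receptor.

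Messenger RNA was measured on 6 arrays of type II alveolar epithelial cells, the surfactant-making cells of the lung, from mice aged 8 weeks. In 3 pools the mice were triple-transgenic, with SP-C-rtTA, (tetO)7CMV-Cre and a homozygous Gpr116flx allele, and these are the pools labelled knockout here. The 3 control pools came from double-transgenic littermates with SP-C-rtTA and (tetO)7CMV-Cre, so both groups carried the recombinase and the transactivator. The surfactant protein C promoter drives the transactivator. In which cells recombination took place is not known here. Each array held RNA from the cells of 3 mice, isolated with collagenase and differential plating, so the spread between arrays is that between pools.

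Wnt ligands are lipid-modified by Porcn in the endoplasmic reticulum, carried to the surface by Wls, and bind a Frizzled receptor together with the co-receptor Lrp5 or Lrp6. Bound receptors disable the Axin and Apc complex that destroys beta-catenin, and beta-catenin then acts with Lef1 and the Tcf factors at target genes such as Axin2, Nkd1 and Sp5. Secreted Sfrp, Frzb, Wif1 and Dkk proteins block this step, while R-spondins and their Lgr receptors prolong it by removing the receptor-degrading ligases Rnf43 and Znrf3. In the lung, Wnt signals from fibroblasts are known to help maintain type II cells, and other Wnt signals act through planar cell polarity genes.

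The identity of the cells and of the groups was checked first. The 12 type II cell markers averaged 12.53 to 12.58 on log2 in pools labelled knockout and 12.45 to 12.47 in control pools. These ranges did not overlap, and 2 of the 12 markers were higher and 0 lower in pools labelled knockout (limma adjusted p under 0.05). Gpr116, whose current symbol is Adgrf5, read 11.89, 11.78 and 11.87 in pools labelled knockout and 11.49, 11.53 and 11.51 in control pools. It was thus higher rather than lower where deletion is labelled, by 0.34 ± 0.05 (SE, n = 3 per group, limma adjusted p = 0.0119). Whether its probes lie in the deleted part is not known here. All directions below therefore rest on the labels. Array pairs correlated at 0.996 to 0.998 among controls, 0.987 to 0.99 across the groups and 0.988 to 0.993 among those labelled knockout. Knockout 2 and control 1 were male pools and the other 4 were female, judged by Xist and the Y-linked Kdm5d, Eif2s3y and Uty.

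Of the 59 Wnt genes, 4 were lower and 1 was higher in pools labelled knockout at an adjusted p under 0.05 (limma, Benjamini-Hochberg adjustment over all 19938 genes). Those that fell were Wif1, Porcn, Wnt11 and Fzd3, and Lrp5 rose. Together they make up 8.47% of the members, beside 8.49% of all genes called. By direction, 6.78% of members fell beside 5.13% of all genes, and 1.69% rose beside 3.36%. Values of the groups did not overlap for 14 members, or 23.7%, beside 27.6% of all genes. An unadjusted p under 0.05 was reached by 13 members, or 22.0%, beside 22.1% of all genes. The share of Wnt genes that changed was thus close to that of the array as a whole. The median log2 difference was -0.017 over the members and 0.0033 over all genes. The results below concern particular genes rather than a shift of the family.

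**Figure D1:**
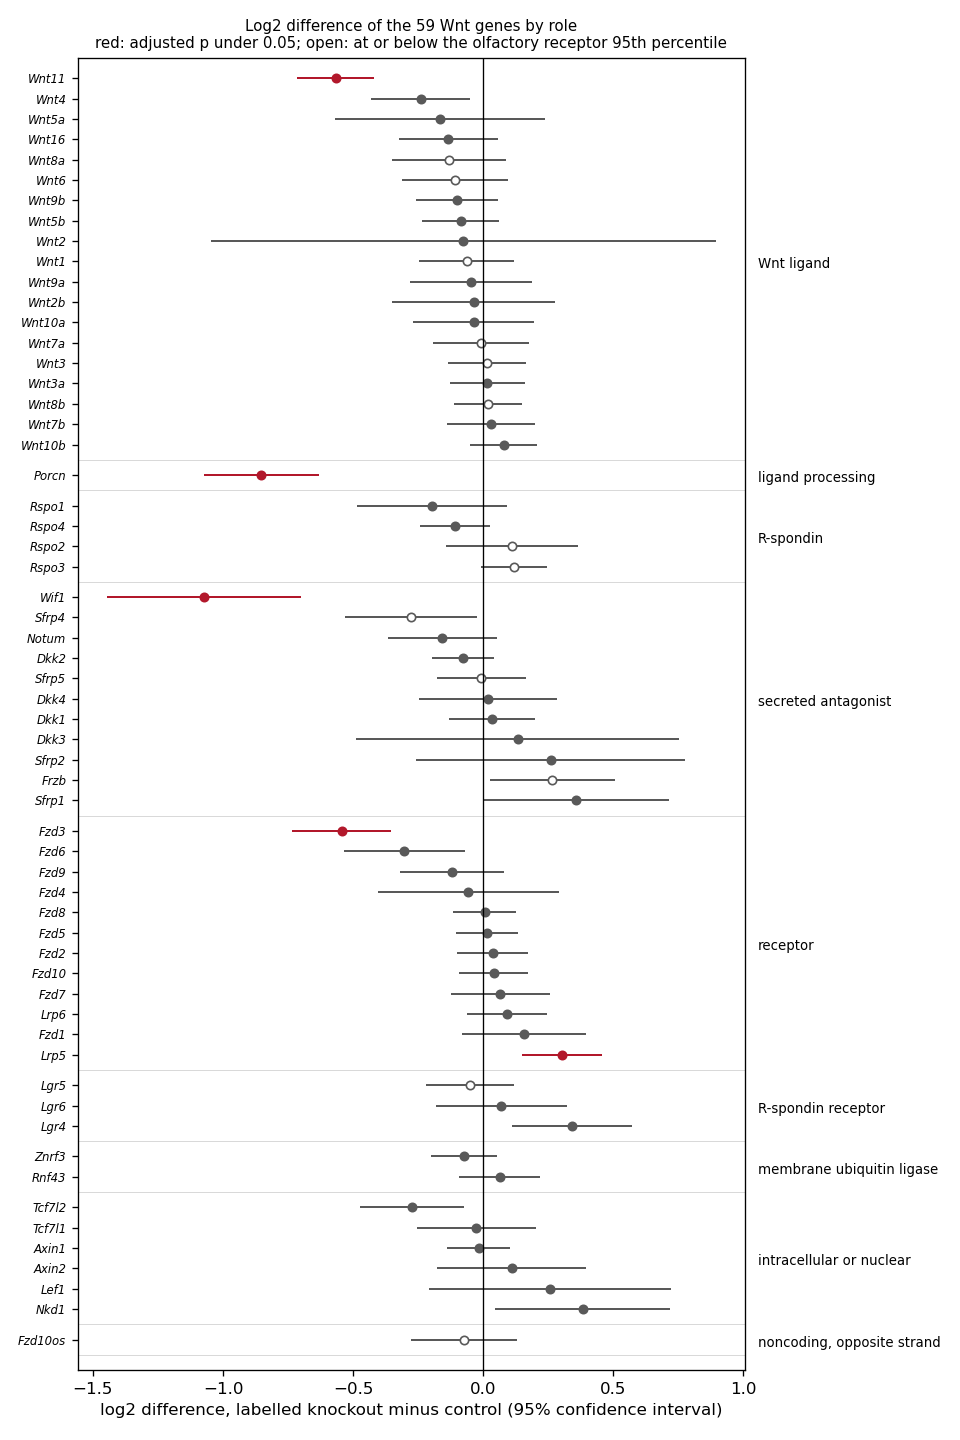
Log2 difference between pools labelled knockout and control pools (x axis, with 95% confidence intervals from the limma fit, n = 3 per group) for the 59 Wnt genes, grouped by role. Red marks the 5 genes past the threshold and open points the 13 genes whose mean lay at or below the olfactory receptor 95th percentile. Wif1, Porcn, Wnt11 and Fzd3 lie to the left of 0 and Lrp5 to the right, while Wnt2 has the widest interval.

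Upstream sequence is shown for the called members found in the RefSeq promoter table (GRCm38.p6), Wnt11 and Wif1. It sets these genes beside the binding motif of the factors that end the pathway. Porcn, Fzd3 and Lrp5 had no entry, so the called members were not compared as a group. The window is the 250 bases before the annotated start, printed 5′ to 3′ on the gene's strand. Capitals mark a match to CTTTGAT or its reverse complement ATCAAAG, a core recognised by Lef1 and Tcf proteins. Wnt11 is at chr7:98834862-98835111 on the plus strand, and Wif1 at chr10:121033754-121034003 on the plus strand.
Wnt11: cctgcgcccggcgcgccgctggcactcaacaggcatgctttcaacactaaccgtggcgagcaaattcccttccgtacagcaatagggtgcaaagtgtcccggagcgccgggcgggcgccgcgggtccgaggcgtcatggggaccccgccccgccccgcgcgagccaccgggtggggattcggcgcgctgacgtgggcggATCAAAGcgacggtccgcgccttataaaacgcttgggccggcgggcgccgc
Wif1: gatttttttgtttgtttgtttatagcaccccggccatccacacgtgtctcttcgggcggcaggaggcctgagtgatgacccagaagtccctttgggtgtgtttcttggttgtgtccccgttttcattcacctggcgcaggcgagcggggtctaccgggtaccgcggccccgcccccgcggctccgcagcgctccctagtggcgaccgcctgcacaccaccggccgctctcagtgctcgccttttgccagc
The Wnt11 window held 1 match, which began 51 bases before the start, and the Wif1 window held 0. Searched on both strands, the motif was present in 3.21% of all 32851 windows of this length. Among the members, 37 had an entry, with 45 windows in all, and 2 of these windows held the motif, those of Wnt11 and of Wnt5b. A second annotated start of Wnt11 had 0 matches in its window. A match describes letters only and is not evidence of binding.

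Among the 19 Wnt ligands, 1 fell, 0 rose and 18 did not pass. Wnt11, a ligand best known for signalling through planar polarity and calcium rather than beta-catenin, read 7.00, 7.02 and 6.85 in pools labelled knockout and 7.51, 7.52 and 7.54 in control pools. The groups were separate, and knockout 3 lay furthest below the controls. The log2 difference was -0.57 ± 0.06 (SE, n = 3 per group), or 1.48-fold lower (limma adjusted p = 0.00487). The printed upstream window of Wnt11 holds the motif in capitals above. A window of Wnt5b also held the motif, and Wnt5b differed by -0.09 without a call (limma adjusted p = 0.487). A link between the motif and these values was not tested.

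Wnt4, a ligand used in epithelial and kidney development, came next. It read 8.11, 7.82 and 7.93 in pools labelled knockout and 8.18, 8.23 and 8.17 in control pools. The groups did not overlap, but knockout 1 lay close to the controls. The difference of -0.24 ± 0.08 did not pass (limma adjusted p = 0.13), and it passed without knockout 1 (adjusted p = 0.0241, within a range of 0.021 to 0.335 over 15 alternatives). A second probe set of Wnt4 gave -0.22. The other 17 ligands had differences between -0.17 and 0.08. A negative difference was seen for 14 of the 19 ligands, beside 9583 of all 19938 genes. The median over the 19 was -0.06, and only Wnt11 was called.

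For many ligands the arrays gave little signal above background. As a guide to background, the 1027 olfactory receptor genes had a 95th percentile of 6.09 on log2, although probe sets differ in how strongly they respond. Wnt1, Wnt3, Wnt6, Wnt7a, Wnt8a and Wnt8b had means at or below this value, and the files hold no detection call. A fall in these 6 genes may not be detectable at this signal. Wnt7b, a ligand of the lung epithelium, stood above it at 7.10 ± 0.10 and 7.07 ± 0.08 (SD, n = 3; labelled knockout, then control), with a difference of 0.03 and a 95% interval of -0.14 to 0.20.

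Porcn, the acyltransferase that attaches the lipid that Wnt ligands need for secretion, was lower in pools labelled knockout. Its values were 9.37, 9.34 and 9.05, beside 10.14, 10.05 and 10.13 in control pools. A gap far wider than the spread within either group separated them. The log2 difference was -0.85 ± 0.09, or 1.81-fold lower (limma adjusted p = 0.00487). Porcn lies on chromosome X, and with pool sex as a covariate the adjusted p was 0.0129, within 0.000801 to 0.0364 over 15 alternatives. The male pools did not stand apart from the female pools of their own group.

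Among the 11 secreted antagonists, 1 fell, 0 rose and 10 did not pass. Wif1, which binds Wnt proteins outside the cell and is expressed in lung epithelium, showed the largest difference of the 59 members. It read 8.03, 7.44 and 7.45 in pools labelled knockout and 8.65, 8.74 and 8.75 in control pools. Knockout 1 was the least reduced, and the groups did not overlap. The difference was -1.07 ± 0.16, or 2.10-fold lower (limma adjusted p = 0.0097). The call was lost without control 2 (adjusted p = 0.052) or control 3 (0.0581), where the differences were -1.06 and -1.055, within 0.000335 to 0.0581 over 15 alternatives.

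The Sfrp proteins and Frzb carry a Frizzled-like domain that traps Wnt ligands, and they went in different directions without a call. Sfrp1 read 7.94, 8.28 and 7.74 in pools labelled knockout and 7.81, 7.63 and 7.45 in control pools, and the groups overlapped. Its difference was 0.36 ± 0.15 (limma adjusted p = 0.221). Frzb read 4.93, 5.29 and 5.07 against 4.73, 4.84 and 4.92, and Sfrp4 read 5.48, 5.30 and 5.45 against 5.62, 5.91 and 5.53. Frzb and Sfrp4 did not overlap between groups, but both lay under the background guide, as did Sfrp5.

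The 4 Dkk genes, whose products mostly block Lrp5 and Lrp6, had differences from -0.08 to 0.13, with limma adjusted p values of 0.437 to 0.95. Notum, an enzyme that strips the Porcn-made lipid from Wnt proteins, read 6.88, 7.18 and 7.03 in pools labelled knockout and 7.09, 7.22 and 7.25 in control pools. These groups overlapped, and the difference was -0.16 ± 0.09 (limma adjusted p = 0.369).

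Among the 10 Frizzled receptors and the co-receptors Lrp5 and Lrp6, 1 rose, 1 fell and 10 did not pass. Fzd3, a receptor known from axon guidance and planar polarity, read 7.48, 7.46 and 7.22 in pools labelled knockout and 7.96, 7.94 and 7.89 in control pools. All pools labelled knockout were below all controls, and knockout 3 was the lowest. The difference was -0.54 ± 0.08, or 1.46-fold lower (limma adjusted p = 0.00971). Without control 1, control 2 or control 3 the call was lost (adjusted p of 0.0515, 0.0537 and 0.0513), within 0.00228 to 0.0537 over 15 alternatives.

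Fzd6, which shares planar polarity roles with Fzd3, read 9.01, 8.65 and 8.71 in pools labelled knockout and 9.13, 9.10 and 9.05 in control pools. The groups did not overlap, with knockout 1 almost at the control level. The difference of -0.30 ± 0.10 did not pass (limma adjusted p = 0.119), and without knockout 1 it was -0.41 and passed (adjusted p = 0.00675, within 0.00675 to 0.29 over 15 alternatives). The other 8 Frizzled genes lay between -0.12 and 0.16. Fzd5 and Fzd8 were the most closely bounded, with 95% intervals of -0.10 to 0.13 and -0.11 to 0.12.

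Lrp5, a co-receptor of beta-catenin signalling, read 9.72, 9.89 and 9.79 in pools labelled knockout and 9.48, 9.45 and 9.56 in control pools. Every pool labelled knockout was above every control. The difference was 0.30 ± 0.06, or 1.23-fold higher (limma adjusted p = 0.0318). Of the 5 calls it was kept in the fewest alternatives, 7 of 15. It was lost without knockout 2 (adjusted p = 0.0516), knockout 3 (0.0889), control 1 (0.119), control 2 (0.139) or control 3 (0.0827), and it was also lost with a replicate block (0.0605) with pool sex as a covariate (0.0533) and with all probe sets fitted (0.0676), within 0.00385 to 0.139 over 15 alternatives. Lrp6, the related co-receptor, had a difference of 0.09 ± 0.06, with a 95% interval of -0.06 to 0.24.

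**Figure D2:**
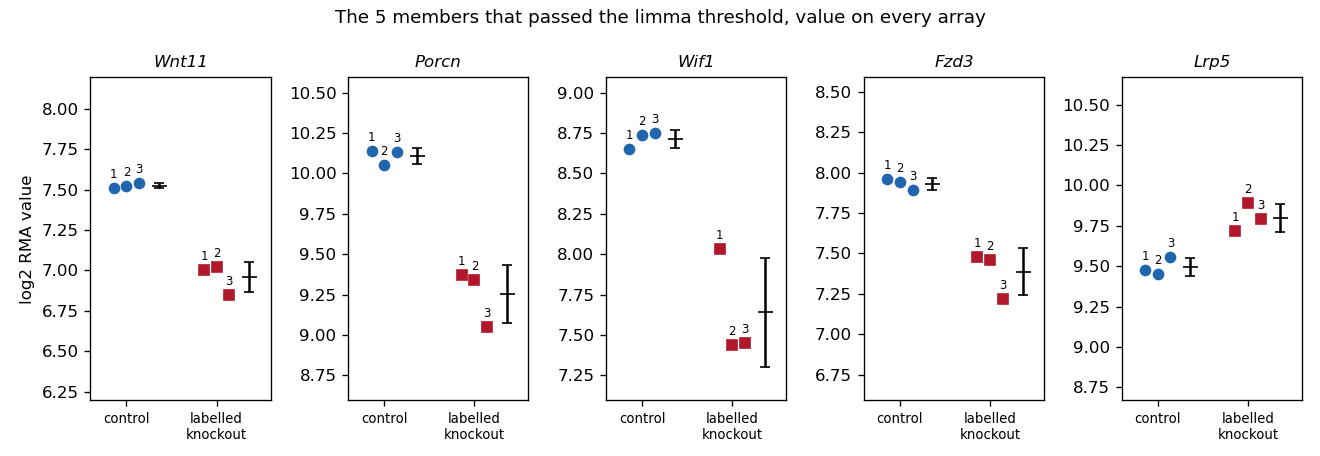
Log2 RMA values (y axis, each panel spanning 2 log2 units) of Wnt11, Porcn, Wif1, Fzd3 and Lrp5 on the 3 control pools (blue circles) and the 3 pools labelled knockout (red squares), with the replicate number beside each point. The bars give mean and SD of each group, and the groups are separate in all 5 panels.

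R-spondins and their receptors had 0 calls among 7 genes (limma; 1 had an unadjusted p under 0.05). Lgr4, the R-spondin receptor of many epithelia, read 7.09, 7.46 and 7.17 in pools labelled knockout and 6.89, 6.90 and 6.90 in control pools. All 3 pools labelled knockout were above a very tight control group. The difference was 0.34 ± 0.10 (limma adjusted p = 0.0803), and it passed without knockout 1 (adjusted p = 0.0347, within 0.00921 to 0.223 over 15 alternatives). Lgr5 lay under the background guide and Lgr6 overlapped between groups, at 6.89 ± 0.15 and 6.82 ± 0.15 (SD, n = 3).

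Rspo3 read 5.72, 5.73 and 5.73 in pools labelled knockout and 5.66, 5.54 and 5.62 in control pools, and its difference of 0.12 ± 0.05 did not pass (limma adjusted p = 0.241). Rspo4 read 6.30, 6.27 and 6.34 against 6.47, 6.42 and 6.34. Rspo2 and Rspo3 lay under the background guide, so the separation of the Rspo3 groups concerns a gene with little signal. The receptor-degrading ligases Rnf43 and Znrf3 had differences of 0.06 and -0.07, with 95% intervals of -0.09 to 0.21 and -0.19 to 0.05.

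None of the 6 intracellular and nuclear members passed (limma; 2 had an unadjusted p under 0.05). Nkd1, a feedback inhibitor that binds Dishevelled and is itself induced by beta-catenin signalling, read 10.25, 10.48 and 10.72 in pools labelled knockout and 9.89, 10.13 and 10.28 in control pools. The groups overlapped, yet arrays that share a replicate number differed by 0.36, 0.35 and 0.44. The difference was 0.38 ± 0.14 (limma adjusted p = 0.167), and with a replicate block it passed (adjusted p = 0.0189, within 0.0189 to 0.398 over 15 alternatives). The labels do not say what the number marks, and arrays 1 and 2 each pair a male with a female pool.

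Tcf7l2, a nuclear partner of beta-catenin, read 7.62, 7.89 and 7.68 in pools labelled knockout and 8.08, 7.94 and 7.99 in control pools. Knockout 2 nearly met control 2, and the difference of -0.27 ± 0.08 did not pass (limma adjusted p = 0.101), although it did without knockout 2 (adjusted p = 0.0246, within 0.0168 to 0.277 over 15 alternatives). Axin2, the most widely used reporter of beta-catenin signalling, was 7.94 ± 0.19 in pools labelled knockout and 7.83 ± 0.17 in control pools (SD, n = 3). Its groups overlapped, and the 95% interval of the difference ran from -0.17 to 0.39. Axin1, the scaffold of the destruction complex, stood at 8.96 on all 3 control pools and differed by -0.02, and Tcf7l1 differed by -0.03.

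Markers of ciliated airway cells were also lower in pools labelled knockout. Of 12 ciliated cell markers, 11 were lower in pools labelled knockout and 0 were higher (limma adjusted p under 0.05), with differences from -1.13 to -0.31. Their mean was 8.83, 8.41 and 8.25 on knockout 1, 2 and 3 and 9.42, 9.38 and 9.43 in control pools, and 0 of the 12 lay under the background guide. Like that mean, Wif1, Porcn and Fzd3 were highest on knockout 1 among the pools labelled knockout. Unlike that mean, Porcn (9.37 and 9.34) and Fzd3 (7.48 and 7.46) were nearly level on knockout 1 and 2. Porcn, Fzd3 and Wnt11 were lowest on knockout 3. Wnt11 was highest on knockout 2, and Wif1 read almost the same on knockout 2 and 3 (7.44 and 7.45). Of 10 club or goblet cell markers 3 were lower and 0 higher, with a mean of 9.75 to 10.29 in pools labelled knockout and 10.03 to 10.15 in control pools, and 0 under the background guide. The part of ciliated or club cells in these results was not tested, and in bulk RNA fewer cells of a type and less RNA per cell cannot be told apart.

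**Figure D3:**
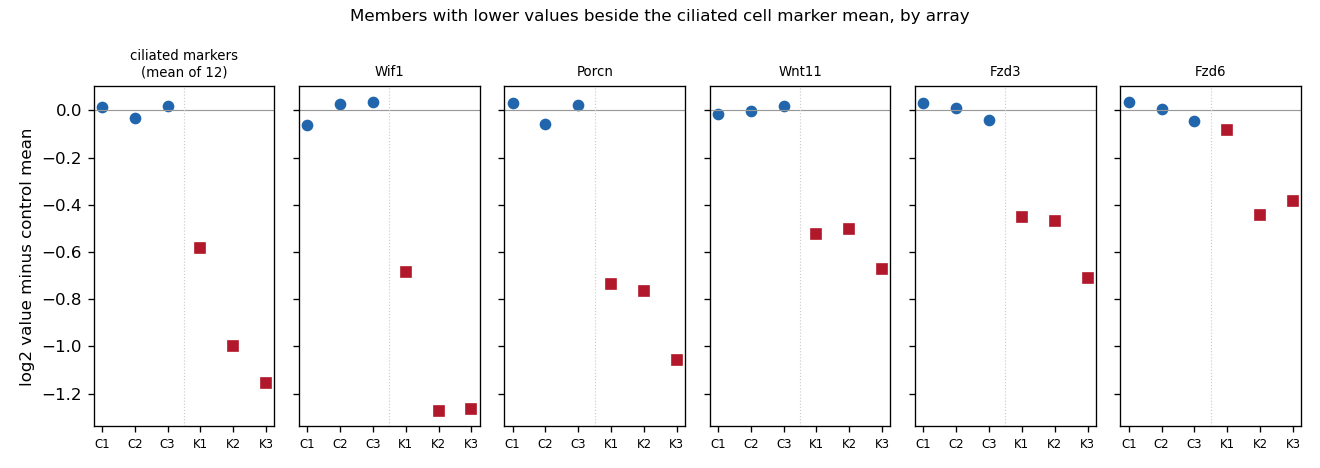
Values on each array minus the control mean (y axis, log2) for the mean of 12 ciliated cell markers and for Wif1, Porcn, Wnt11, Fzd3 and Fzd6. C1 to C3 are control pools and K1 to K3 pools labelled knockout. The markers and every gene shown are lower on K1, K2 and K3 than on each control, although Fzd6 did not pass the threshold. K1 is nearest to the controls for the markers, Wif1, Porcn, Fzd3 and Fzd6, although K1 and K2 are nearly level for Porcn and Fzd3.

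Several members varied more between pools labelled knockout than between groups. They were chosen after their values were seen, as the members with the largest SD there. Wnt2, a ligand made by lung fibroblasts, read 6.76, 8.55 and 7.30 in pools labelled knockout, a range of 1.79, and 7.42, 7.71 and 7.71 in control pools, a range of 0.29. Knockout 2 was the highest and knockout 1 the lowest of all 6. The mean difference of -0.08 therefore carried a 95% interval of -1.04 to 0.89. Dkk3, a divergent Dkk family member, showed the same extremes at 7.24, 8.41 and 7.78, beside controls of 7.59, 7.74 and 7.70.

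Wnt5a, a mesenchymal ligand of the planar polarity branch, read 7.00, 7.56 and 6.86 against 7.37, 7.25 and 7.30. It too was highest on knockout 2, and without that array its difference was -0.38 and passed (limma adjusted p = 0.0256, within 0.0256 to 0.955 over 15 alternatives), while with all arrays it was -0.17 ± 0.17 (adjusted p = 0.649). Of 14 fibroblast or smooth muscle markers, 10 were highest on knockout 2. Their mean was 9.41, 10.03 and 9.54 in pools labelled knockout and 9.52 to 9.70 in control pools, and 0 of the 14 passed the threshold (limma; 2 had an unadjusted p under 0.05). Among them Tcf21, a fibroblast transcription factor chosen here after its values were seen, read 7.74, 10.04 and 8.90, beside controls of 8.78, 9.21 and 9.07. Other markers of the list ran differently over the same pools: Acta2 read 11.66, 11.49 and 11.21, Myh11 9.11, 8.88 and 8.60, and Dcn 11.41, 10.63 and 10.48. Lum was the marker under the background guide. Whether fibroblast content set these Wnt values was not tested.

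Lef1, a nuclear partner of beta-catenin that is also abundant in T cells, read 6.77, 6.06 and 5.99 in pools labelled knockout and 6.08, 6.03 and 5.94 in control pools. Knockout 1 alone stood apart, and the difference of 0.26 ± 0.20 did not pass (limma adjusted p = 0.522). Every other array lay under the background guide of 6.09, so the Lef1 mean cleared the guide only through knockout 1. Of 9 T or NK cell markers, 8 were highest on knockout 1, and their mean was 5.96 there, 5.21 on both other pools labelled knockout and 5.21 to 5.31 in control pools. Cd3d, Cd3g, Cd4, Cd28, Il7r, Ncr1 and Nkg7 had 6-array means under the background guide, while Cd8a and Cd3e did not. Cd8a read 7.75 on knockout 1, but 6.10 and 6.07 on knockout 2 and 3 and 6.08 to 6.18 in control pools. Sfrp2 was also highest on knockout 1, at 8.33 beside 7.42 and 7.65, with controls of 7.40 to 7.62. The part of T cells in the Lef1 value was not tested.

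**Figure D4:**
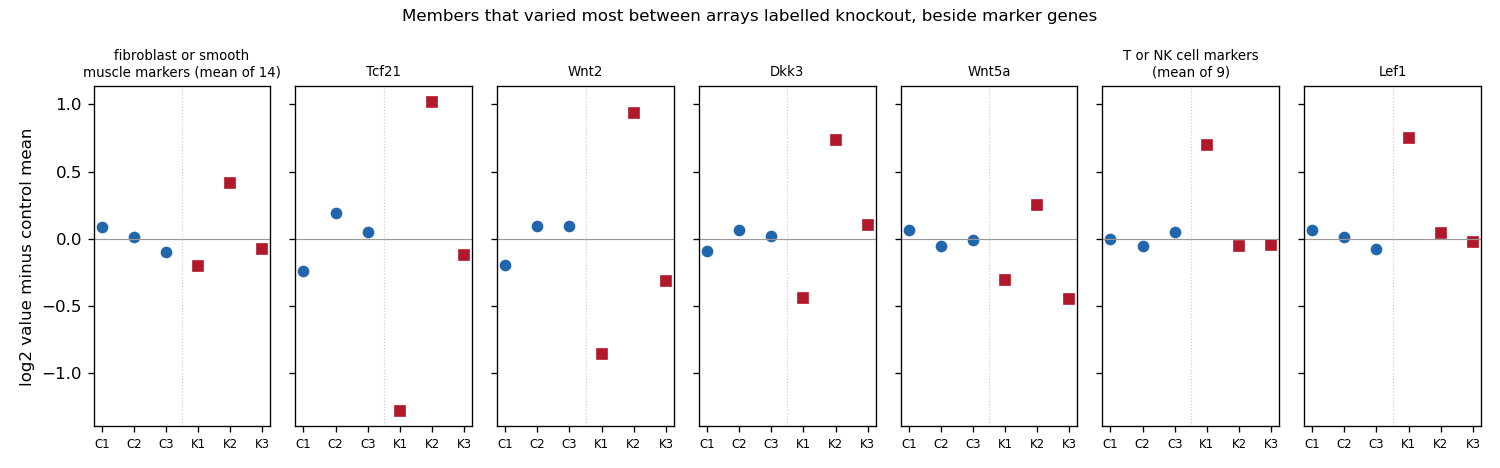
Values on each array minus the control mean (y axis, log2) for the mean of 14 fibroblast or smooth muscle markers, Tcf21, Wnt2, Dkk3, Wnt5a, the mean of 9 T or NK cell markers and Lef1. K2 is the highest array for the fibroblast mean, Tcf21, Wnt2, Dkk3 and Wnt5a, and K1 for the T or NK cell mean and Lef1.

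Across the members, the SD was larger among pools labelled knockout than among controls for 41 of 59 genes, or 69.5%, beside 68.0% of all genes. The median SD of a member was 0.111 in pools labelled knockout and 0.0737 in control pools. The wider spread of the Wnt genes was thus shared by the rest of the array.

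The other genes of the pathway were described from lists of intracellular, co-receptor and target genes. Of 70 measured, 3 rose, 3 fell and 64 did not pass (limma, adjusted over all genes). The share was 4.29% in each direction, beside 3.36% of all genes that rose and 5.13% that fell, and the median difference was -0.0083. Jag1, a Notch ligand and beta-catenin target, had the largest change. It read 9.35, 8.91 and 8.90 in pools labelled knockout and 10.08, 10.04 and 9.95 in control pools, a separation of -0.97 ± 0.12 (limma adjusted p = 0.0067). Knockout 1 was the nearest to the controls, as for Wnt4, Wif1 and Fzd6.

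The planar polarity cadherins Celsr1 and Celsr2 fell by 0.32 and 0.31 (limma adjusted p = 0.0236 and 0.0199). Vangl1, which acts with them, read 8.62, 8.36 and 8.41 against 8.71, 8.66 and 8.66 and did not pass (adjusted p = 0.156). The other polarity-branch genes on the same list went both ways: Ror1 (0.25) and Daam2 (0.28) were higher without overlap between groups, and neither passed (adjusted p = 0.0902 and 0.211). Prickle1, Vangl2, Ptk7, Ror2 and Ryk had differences of 0.02 to 0.05, and Prickle2 and Celsr3 stood at -0.30 and -0.10, all without a call.

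Sp5, a direct target of beta-catenin, rose by 0.47 ± 0.11, from 6.82, 6.91 and 6.74 in control pools to 7.52, 7.25 and 7.10 (limma adjusted p = 0.0462). Apc, a component of the destruction complex, rose by 0.28 ± 0.06 (limma adjusted p = 0.032). Gpc4, a cell surface proteoglycan that can present Wnt ligands, rose by 0.31 ± 0.05 (limma adjusted p = 0.0168). The Apc call was lost with a replicate block (adjusted p = 0.0631), with pool sex as a covariate (0.0621) and with all probe sets fitted (0.0673), within 0.00778 to 0.128 over 15 alternatives. The Sp5 call was lost with pool sex as a covariate (0.0788) and with all probe sets fitted (0.0965), within 0.00761 to 0.175. Sp5, Apc and Gpc4 each lost their call when any control pool was left out, at adjusted p of up to 0.175, 0.128 and 0.0831. Apc also lost it without knockout 1 (0.0582) or knockout 3 (0.1), Gpc4 without knockout 3 (0.0574) and Sp5 without knockout 2 (0.0666). Celsr1 and Celsr2 were not called when knockout 3 or any 1 control pool was left out, at adjusted p of up to 0.103 and 0.0885, nor was Celsr1 with all probe sets fitted (0.0518).

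The nearest genes short of the threshold were Nkd2, Birc5, Ror1, Cd44 and Wls. Nkd2, a relative of Nkd1, read 6.55, 6.89 and 6.66 against 6.39, 6.32 and 6.23, without overlap (0.39 ± 0.09, limma adjusted p = 0.0529), and it passed in 7 of 15 alternatives, among them pool sex as a covariate (adjusted p = 0.0308), within 0.00776 to 0.191. Birc5, a target that is also a mitotic gene, differed by 0.37 ± 0.10 and passed with a replicate block (adjusted p = 0.0479, within 0.00966 to 0.237 over 15 alternatives). Of 9 proliferation markers, 7 were also higher (limma adjusted p under 0.05). Their mean was 8.54 to 9.16 in pools labelled knockout and 7.98 to 8.21 in control pools, and 0 lay under the background guide. Their part in the Birc5 and Sp5 values was not tested. The Wnt co-receptor Ror1 (0.25), the adhesion receptor Cd44 (0.26) and the Wnt carrier Wls (0.17) did not pass and did not overlap between groups. Of the 16 genes on the target list, 1 rose, 1 fell and 14 did not pass. Signs were 6 positive and 10 negative. Of the 16, the groups did not overlap for 5 that were higher and 1 that was lower, beside 14.8% and 12.8% of all genes. At an unadjusted p under 0.05, Sp5, Birc5, Cd44 and Ephb3 were on the higher side and Jag1 on the lower.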

How the data were processed

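The authors deposited log2 values. The submitters' processing notes name RMA and version 1.1 of Affymetrix Expression Console. RMA subtracts background, equalises array distributions and summarises probes, so a change shared by most genes is removed. Array medians over the tested genes were 7.13 to 7.20 on log2. The genome build behind the array was not given in the sources used here.

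Of 35556 probe sets, 21789 had 1 gene symbol in the platform annotation, and the highest-mean probe set per gene gave 19938 genes. Arrays labelled knockout and control were compared with limma 3.58.1 in R 4.3.3 (lmFit, eBayes, two-sided, no filter or block), after the script was tested on simulated data. A gene was called at a Benjamini-Hochberg adjusted p under 0.05 over all genes. With 3 pools per group, the number of arrays limits precision.

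Members, lists and alternatives were chosen with earlier results of these data known. Named genes were the called members, the 10 next by p with their values on every array, other members by role, and the called and 6 next pathway genes. Other genes were chosen after their values were seen. Same-number arrays correlated at 0.192, 0.103 and 0.111 in their deviations from the group means. On these values alone, a block on the replicate number was fitted as an alternative. The main fit had no block, so its p values do not use this pairing. Alternatives covered probe sets, filter, variance model, array weights, centring, blocks, pool sex and each array left out.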

Additional observations from a re-analysis of the deposited data

How the results depend on the processing

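The count of members that rose was 1. It was 0 with all probe sets fitted (limma), 0 with pool sex as a covariate, 2 with array weights and 3 with the first title number as a random block. Leaving out each array in turn gave 0 to 2. Where limma gave 0, 2 to 5 members had a positive difference at an unadjusted p under 0.05. The count that fell was 4. It was 8 with the first title number as a random block and 2 to 6 with an array left out. Without control 2 or control 3 it was 2. Among the other pathway genes, the 3 that rose became 1 with all probe sets fitted, 7 with array weights, 8 with the first title number as a random block and 0 to 5 with an array left out, with 7 to 9 at an unadjusted p under 0.05 where limma gave 0. The 3 that fell became 1 to 6 with an array left out. The random block had a negative estimated correlation, -0.513, resting on few arrays per number, and no title number is shared between groups, so a batch marked by it and the group cannot be told apart. The cause of the other shifts was not tested. Wnt11, Porcn and Jag1 kept their call in all 15 alternatives. Wif1 kept it in 13, Fzd3 in 12 and Lrp5 in 7, and the 5 called members kept their direction in all 15. With the replicate number as a block, Lrp5 and Apc lost their call and Nkd1 and Birc5 gained one, and no other call changed among the 59 members and the 12 pathway genes refitted. Signal near background limits 13 members, and Lef1 stood above the background guide only on knockout 1.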
